A study of Mus musculus with 4 samples.

Results

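Interstitial cells of Cajal (ICC) from the colon of leptin-deficient mice were compared with those of heterozygous mice by sequencing their microRNAs (miRNAs), with 1 library on each side. These are 2 of the 4 libraries of the study, and the other two hold jejunal ICC of the same genotypes. All 982 miRNA entries of the table belonged to the comparison, and ratios were formed for 322 of them, whose mean over the 4 libraries reached 10 CPM (normalised counts, scaled to a common library total). The ob/ob mice were homozygous for the ob mutation of Lep (Lepob/ob;KitcopGFP/+), and the labels call them diabetic. The ob/+ mice carried 1 copy of it (Lepob/+;KitcopGFP/+), and the labels call them healthy and, in the genotype field, wild type. Both groups also carried the KitcopGFP allele, in which the Kit locus drives a green fluorescent protein, on a C57BL/6 background at an age of 11 to 20 weeks. Cells were dissociated from the whole colon and sorted for that fluorescence, so any other cell with an active Kit promoter could enter the sort. RNA was pooled within a genotype (15 each, per the labels), which leaves no replicate in either group.

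ICC sit between the muscle cells and nerves of the gut wall, generate the slow waves that time the contractions of smooth muscle, and depend on the receptor tyrosine kinase Kit. Leptin is the adipocyte hormone that restrains feeding, and mice without it become obese and hyperglycaemic. A miRNA is cut from a hairpin precursor, whose 2 arms (5p and 3p) can each give a mature strand. The mature strand guides the silencing complex to messenger RNAs that pair with its seed, the bases near its 5′ end, so miRNAs with 1 seed address overlapping sets of targets. The defining markers of ICC, Kit and Ano1, are messenger RNAs and were not measured in these libraries, so the identity of the sorted cells could not be checked against them.

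The mature sequences on which the comparison turned are shown 5′ to 3′ from RefSeq (GRCm38.p6), with the seed, bases 2 to 8, in capitals. The first set was lower in ob/ob colon, or is the near-identical partner of a miRNA that was, and it shows how little separates partners with very different ratios.
miR-10b-5p: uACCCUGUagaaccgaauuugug
miR-10a-5p: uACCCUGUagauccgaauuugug
miR-196b-5p: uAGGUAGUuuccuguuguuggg
miR-196a-5p: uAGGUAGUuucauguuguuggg
miR-99a-5p: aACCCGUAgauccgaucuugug
miR-100-5p: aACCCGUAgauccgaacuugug
miR-221-3p: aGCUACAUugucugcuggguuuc
miR-222-3p: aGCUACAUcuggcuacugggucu
miR-199a-5p: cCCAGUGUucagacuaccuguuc
miR-214-3p: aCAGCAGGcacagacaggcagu
miR-574-5p: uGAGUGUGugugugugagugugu
miR-200b-3p: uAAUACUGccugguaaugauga
Counting from 1 at the 5′ end, miR-10a-5p differs from miR-10b-5p by A12U, miR-196a-5p from miR-196b-5p by C12A and miR-100-5p from miR-99a-5p by U16A. All 3 changes lie outside the seed.

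The second set holds miRNAs of the X-linked miR-322 cluster, which were higher in ob/ob colon, beside seed partners encoded elsewhere that were not.
miR-351-5p: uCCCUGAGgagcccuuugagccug
miR-125b-5p: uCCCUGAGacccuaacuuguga
miR-125a-5p: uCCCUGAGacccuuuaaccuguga
miR-322-5p: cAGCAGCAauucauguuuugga
miR-195a-5p: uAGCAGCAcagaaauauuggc
miR-16-5p: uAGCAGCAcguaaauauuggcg
miR-15b-5p: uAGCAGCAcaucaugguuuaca
miR-503-3p: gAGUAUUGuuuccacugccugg
Within each seed the letters after base 8 differ, and the ratios reported below differ with them.

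The ob/+ colon library held 716473 miRNA counts and the ob/ob colon library 267076, although their raw reads were close in number, at 11844268 and 11381897. Reads without an adapter made up 35.9% and 36.0% of the raw reads, and reads under 15 nt 41.0% and 41.8%. Mappable reads numbered 2727038 in ob/+ and 2511371 in ob/ob. Of the mappable reads, 26.3% were counted as miRNA in ob/+ (exact binomial 95% interval 26.2 to 26.3) and 10.6% in ob/ob (10.6 to 10.7). The libraries thus differed little in raw depth and much in the share of reads that were miRNA. The part of this difference in any ratio was not tested. A level given below is relative to the other miRNAs of its library and not an amount per cell. Shares are percentages of the miRNA counts, whereas CPM and ratios use the adjusted library total, so they can point apart. The share of miR-10a-5p was 9.24% in ob/+ and 10.2% in ob/ob, while its log2 ratio of ob/ob over ob/+ was -0.22. After scaling, 1 count was worth 1.52 CPM in ob/+ and 3.15 CPM in ob/ob, and an entry without a count could be as high as 4.55 CPM in ob/+ and 9.45 CPM in ob/ob (3 counts). Intervals and these floors cover counting error only, because reads that carry no molecular identifier may be copies of 1 molecule, and the difference between the pools has no replicate check.

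miR-145a-5p, a smooth muscle miRNA that promotes the contractile state, was the most abundant miRNA of ob/ob colon, with 16.1% of the counts against 9.24% in ob/+. miR-10b-5p, encoded within the HoxD cluster, led ob/+ colon with 15.8% and held 1.07% in ob/ob. The miRNAs with a smaller share in ob/ob were lower by 21.6 percentage points in all, of which miR-10b-5p alone made up 68.5%. The let-7 miRNAs, which restrain growth and proliferation genes, took more of the ob/ob library: let-7f-5p held 3.15% in ob/+ and 5.44% in ob/ob, and let-7a-5p 3.13% and 5.17%. miR-125b-5p held 9.64% in ob/+ and 7.88% in ob/ob, and miR-26a-5p 5.85% and 4.76%. The concentration of the libraries was close, since the 10 most abundant entries took 76.1% and 74.3% of the counts.

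**Figure D1:**
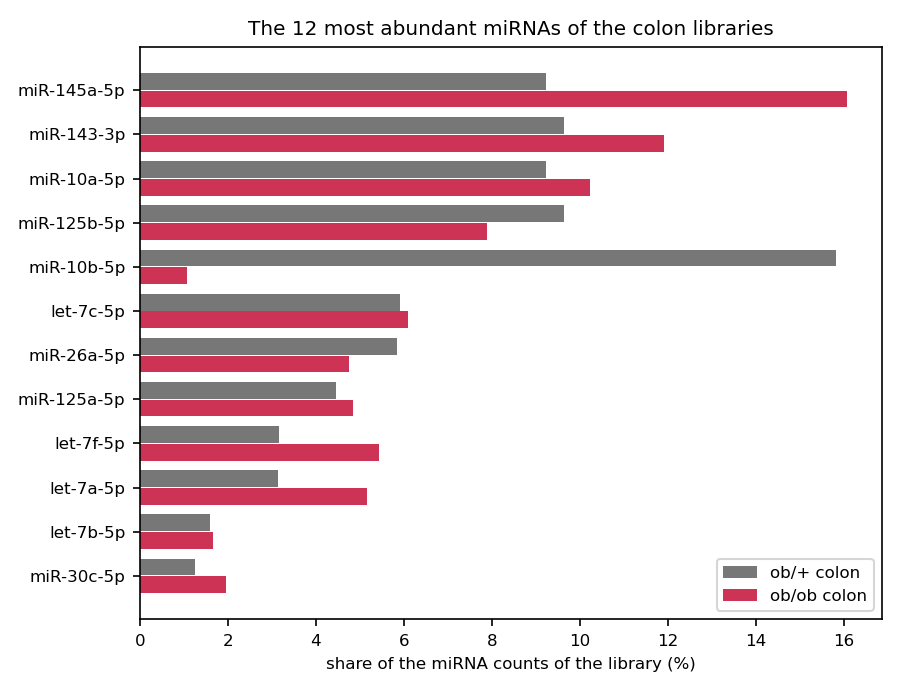
Share of the miRNA counts (%, x axis) of the 12 most abundant miRNAs of the colon libraries, in grey for ob/+ and red for ob/ob, 1 library each. miR-10b-5p holds 15.8% in ob/+ and 1.07% in ob/ob, and miR-145a-5p has the longest bar of ob/ob at 16.1%.

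Of the 322 entries compared, 55 were at least 2-fold higher in ob/ob colon (17.1%) and 56 at least 2-fold lower (17.4%), while 211 lay within 2-fold. Ratios are log2 of ob/ob over ob/+, with a prior count of 2 added before the logarithm, which pulls low counts towards 0. They ran from -6.28 to 2.88 with a median of -0.21 and quartiles of -0.79 and 0.62. The 95% counting interval lay wholly above 0 for 76 entries, wholly below 0 for 100 and across 0 for 146. It lay wholly beyond 2-fold for 21 higher and 27 lower entries. Among the 160 entries with at least 100 CPM in a colon library, 18 were higher and 32 lower by 2-fold, so the even split of all entries rested on scarce miRNAs for its higher side. The split also depended on the scale: library totals alone gave 75 higher and 40 lower, and scaling to mappable reads 23 higher and 167 lower. The median of all ratios was 0.15 with library totals and -1.07 with mappable reads, and each group below is to be read against the median of -0.21 on the main scale. Each 2-fold count of a list is likewise to be read beside the 17.1% higher and 17.4% lower of all entries.

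**Figure D2:**
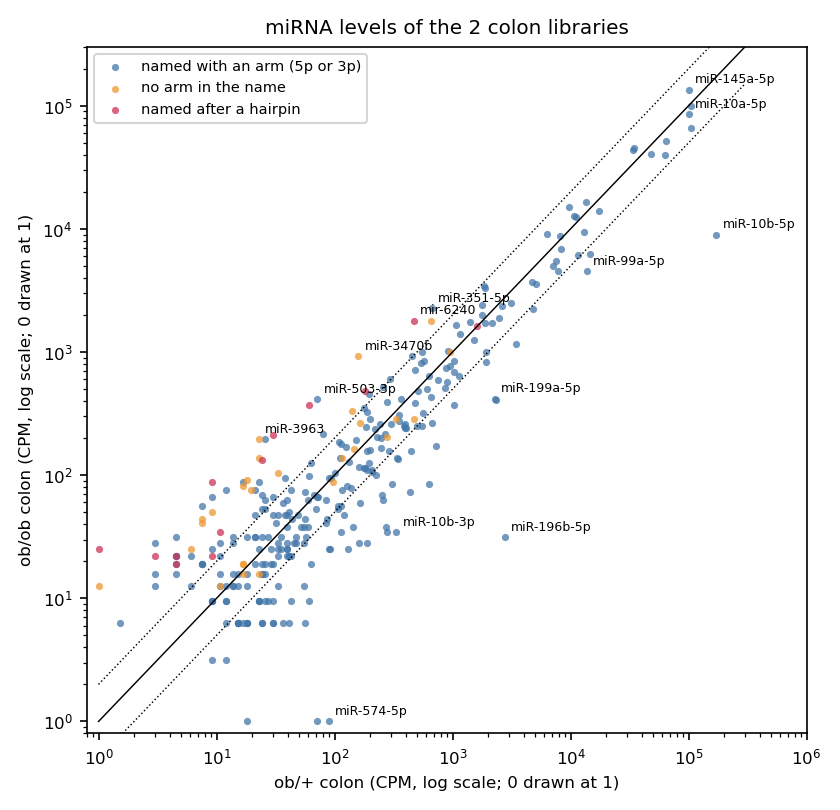
Level of each of the 322 compared entries in ob/+ colon (x axis) and ob/ob colon (y axis) in CPM on log axes, 1 library each, with entries at 0 drawn at 1, the line of equality solid and the 2-fold lines dotted. miR-10b-5p and miR-196b-5p lie far below the line, and the entries named without an arm or after a hairpin lie on or above it for the most part.

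The Hox-encoded miRNAs held the deepest differences. They are embedded in the Hox gene clusters, which set position along the body axis, and they are known to repress Hox genes. miR-196b-5p, which overlaps an exon of Hoxa9 on chromosome 6, had 1827 counts in ob/+ and 10 in ob/ob. That is 2773 against 31.5 CPM, a ratio of -6.28 (95% interval -7.52 to -5.58) and the lowest of the 322. miR-196a-5p, from loci between Hoxb13 and Hoxb9 on chromosome 11 and in an intron of Hoxc5 on chromosome 15, had 416 and 27 counts (-2.83, -3.51 to -2.33). Although they differ by the single letter given above, the b form outnumbered the a form 4.39-fold in ob/+ (3.95 to 4.90), and in ob/ob the ratio of b to a was 0.370 (0.160 to 0.790).

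miR-10b-5p lies in an intron of Hoxd3 and Hoxd4 on chromosome 2 and had 113432 counts in ob/+ and 2852 in ob/ob. Its level was 172162 against 8981 CPM, 19.2-fold lower in ob/ob (-4.26, -4.31 to -4.21). Its other arm, miR-10b-3p, had 220 and 11 counts (-3.12, -4.29 to -2.40), so both strands of the hairpin were lower. miR-10a-5p, from between Hoxb5 and Hoxb4, had 66200 and 27328 counts and a ratio of -0.22 (-0.24 to -0.20), close to the median of all entries and above 0 (0.15) with library totals. Its other arm miR-10a-3p had 88 and 41 counts (-0.05, -0.62 to 0.50). Within a library no scaling enters: miR-10b-5p was 1.71 times miR-10a-5p in ob/+ (1.70 to 1.73) and 0.104 times in ob/ob (0.10 to 0.108). miR-615-3p, encoded in the HoxC cluster, was the exception, with 15 and 28 counts (1.77, 1.0 to 2.96). Of the 7 Hox-encoded arms compared, 4 were at least 2-fold lower and 1 higher, with a median of -2.83, and the 9 entries of the list summed to 276532 CPM in ob/+ and 95409 in ob/ob.

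The mesenchymal miRNAs were lower nearly throughout. miR-199a and miR-214 are made from Dnm3os, a long RNA antisense to Dnm3 on chromosome 1, and are typical of fibroblasts and other connective tissue cells. miR-199a-5p had 1508 counts in ob/+ and 133 in ob/ob (-2.44, -2.72 to -2.19). miR-199b-3p, whose mature sequence is identical to that of miR-199a-3p, had 1539 and 130 (-2.50, -2.78 to -2.25), and miR-214-3p had 185 and 11 (-2.87, -4.05 to -2.15). The 3 intervals overlapped. miR-455-3p and miR-140-3p, which are known from cartilage, had 2279 and 368 counts (-1.57, -1.74 to -1.42) and 295 and 50 (-1.48, -1.97 to -1.07). The fibroblast list counts miR-455 and miR-140 as well. Of its 8 arms compared, 6 were at least 2-fold lower and 0 higher. The exceptions were miR-455-5p (15 and 3 counts, -0.97) and miR-140-5p (7 and 5 counts, 0.42). The median was -1.62, and the list summed to 8941 CPM in ob/+ and 2229 in ob/ob. Of these sums miR-455-3p alone gave 3459 and 1159 CPM. Of the 9 entries of the list, 0 had no count in ob/+ and 1, miR-214-5p, in ob/ob. In pools of sorted cells, fewer cells of a type and less RNA per cell cannot be told apart, which applies to each cell type list.

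Epithelial miRNAs were scarce in both libraries and lower in ob/ob. The miR-200 family holds cells in the epithelial state, and miR-192, miR-194 and miR-215 are abundant in the intestinal lining. miR-200b-3p had 180 counts in ob/+ and 12 in ob/ob (-2.72, -3.83 to -2.01). miR-200c-3p had 60 and 8 (-1.69, -3.13 to -0.78), and miR-192-5p had 169 and 20 (-1.95, -2.77 to -1.35). miR-194-5p, which shares its primary transcripts with miR-192 and miR-215, had 84 and 26 (-0.61, -1.33 to 0.01), and miR-215-5p had 48 and 21 (-0.13, -0.95 to 0.63), so neither was 2-fold lower. Of 6 compared, 4 were 2-fold lower, with a median of -1.82. Over the 16 entries of the list the sum was 921 CPM in ob/+ and 299 in ob/ob, and 4 and 8 of them were at 0, miR-141-3p and miR-429-3p among those at 0 in ob/ob. The part of these cells in the other ratios was not tested.

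Markers of some other cell types were lower too. The miR-183 cluster, between Nrf1 and Ube2h on chromosome 6 and best known from sensory cells, was at the edge of detection in ob/ob. miR-182-5p had 47 counts in ob/+ and 0 in ob/ob, which is 7.55-fold lower with ob/ob set at the floor of 3 counts. Its counting interval, which also covers error in the ob/+ counts, lay below -2.56. miR-96-5p had 12 and 0, 1.93-fold lower with ob/ob at the same floor, with an interval below -0.42. miR-183-5p had 24 and 2 counts (-1.94, -5.66 to -0.52), so all 3 members were lower. The median ratio was -2.37, or -1.94 with the undetected members at that floor. miR-122-5p, which is made in hepatocytes, had 125 and 9 counts (-2.57, -3.91 to -1.77). miR-203-3p, a miRNA of stratified epithelium, had 107 and 9 (-2.35, -3.69 to -1.54). miR-375-3p, found in endocrine and epithelial cells, had 20 and 3 (-1.33, -4.08 to 0.07), an interval that crossed 0.

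The miRNAs reported to target Kit are of interest here, since ICC depend on that receptor. The sort used the fluorescent protein driven by the Kit locus and not Kit itself, and any effect of these miRNAs on the sort was not tested. miR-221 and miR-222 share the seed GCUACAU and 1 locus on the X chromosome. miR-221-3p had 676 counts in ob/+ and 117 in ob/ob (-1.47, -1.77 to -1.19), miR-222-3p had 481 and 55 (-2.05, -2.51 to -1.67) and miR-221-5p had 201 and 27 (-1.79, -2.48 to -1.26). All 3 strands were lower, and miR-221-3p and miR-222-3p together had 1756 CPM in ob/+ and 542 in ob/ob. miR-494-3p had 28 and 3 counts (-1.76) and miR-193b-3p 12 and 2 (-1.08). The other members did not share this: miR-218-5p, encoded in introns of Slit2 and Slit3, had 16 and 22 counts (1.36, 0.52 to 2.54), and miR-34a-5p had 5 and 6 (0.96, -0.66 to 3.37). Of 8 arms compared, 5 were 2-fold lower and 1 higher, with a median of -1.27.

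**Figure D3:**
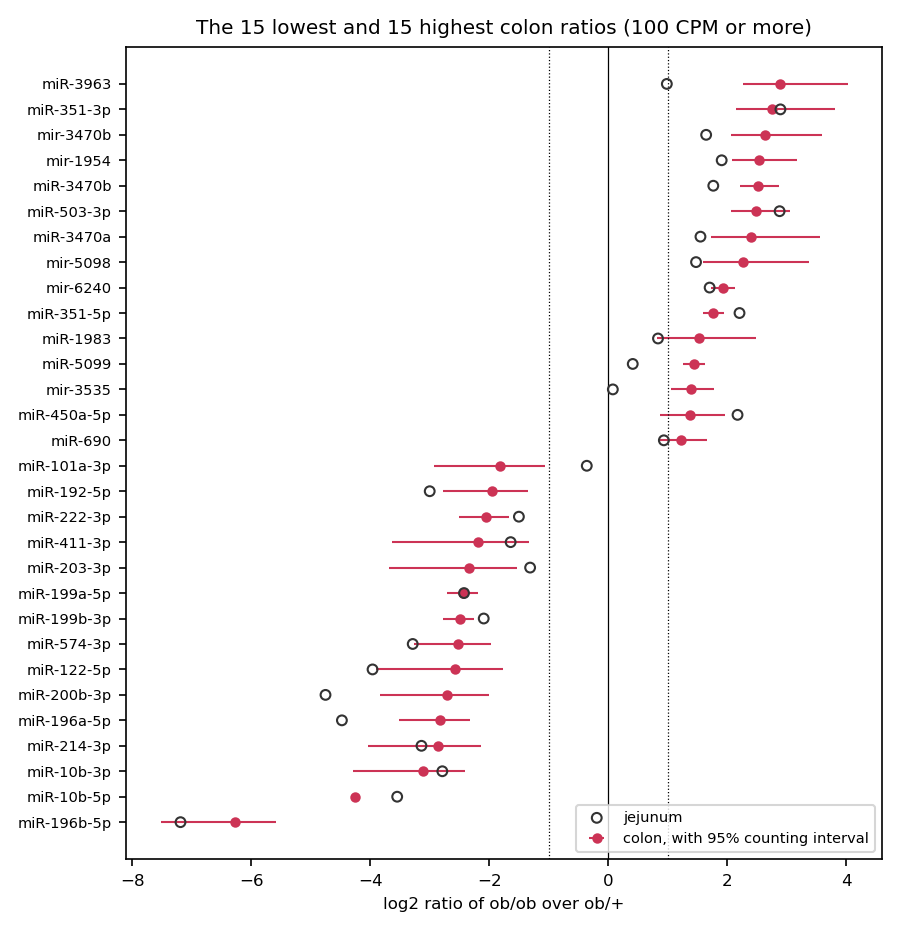
Log2 ratio of ob/ob over ob/+ (x axis) of the 15 lowest and the 15 highest entries with at least 100 CPM in a colon library (filled red, with 95% counting interval) and their jejunal ratio (open circles), with dotted lines at 2-fold. The lowest is miR-196b-5p at -6.28 and the highest miR-3963 at 2.88; miR-101a-3p and mir-3535 have jejunal ratios of -0.36 and 0.07.

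A list of 4 hairpins in introns of protein-coding genes, miR-574, miR-335, miR-204 and miR-151, was lower as well. Other intronic miRNAs went both ways. For example, miR-10b-5p (-4.26) and miR-200b-3p (-2.72, in an intron of Ttll10) were lower, while miR-218-5p (1.36) and miR-181d-5p (1.20) were higher. miR-574 lies in an intron of Fam114a1 on chromosome 5. miR-574-5p had 59 counts in ob/+ and 0 in ob/ob, 9.48-fold lower with ob/ob set at the floor (interval below -2.90). miR-574-3p had 288 and 23 (-2.52, -3.27 to -1.98). miR-335, in an intron of the imprinted gene Mest on chromosome 6, had 1254 and 264 counts of its 5p arm (-1.19, -1.39 to -1.0) and 223 and 44 of its 3p arm (-1.26). miR-151-3p had 440 and 84 counts (-1.32, -1.69 to -1.0) and miR-204-5p, encoded in Trpm3, 147 and 32 (-1.11). Of the 7 arms of these 4 hairpins, 6 were 2-fold lower, and the other, miR-151-5p, had 752 and 202 counts (-0.84, -1.07 to -0.62). With library totals only 2 of the 7, both arms of miR-574, were 2-fold lower, and the list median was -0.90 in place of -1.26. The activity-regulated pair miR-132 and miR-212, which follows neuronal activity through CREB, had 3 of 3 arms 2-fold lower. miR-132-3p had 109 and 19 counts (-1.40, -2.25 to -0.76) and miR-212-5p 75 and 11 (-1.60, -2.78 to -0.80). miR-132-5p had 17 and 3 (-1.13, -3.86 to 0.34), an interval that crossed 0. With library totals, and with a prior count of 5, 2 of the 3 were 2-fold lower.

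The imprinted Dlk1-Dio3 region on chromosome 12, whose miRNAs are expressed from the maternal copy, gave 40 compared arms, the longest list. Of these, 0 were 2-fold higher and 11 were 2-fold lower, with a median of -0.77 (2 higher and 7 lower with library totals). Near Rtl1, to which it lies antisense, miR-127-3p had 3152 counts in ob/+ and 716 in ob/ob (-1.08, -1.20 to -0.97), and miR-434-3p had 363 and 80 (-1.12, -1.50 to -0.78). In the distal group, miR-379-5p had 165 and 22 counts (-1.79), and miR-411-3p had 86 and 8 (-2.19, -3.63 to -1.33). miR-541-5p, from an intron of Mirg, was the most abundant of the region in both libraries and differed less, with 3337 and 1127 counts (-0.51, -0.61 to -0.42). Summed over the 84 entries of the list, the region gave 13576 CPM in ob/+ and 7860 in ob/ob. Arms from 1 region share a transcript or a domain and are not independent measurements.

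Among abundant miRNAs outside these groups, miR-99a-5p had 9077 counts in ob/+ and 1441 in ob/ob (-1.60, -1.68 to -1.52), and miR-23a-3p had 9600 and 1982 (-1.22, -1.29 to -1.15; -0.85 with library totals). miR-100-5p, 1 letter away from miR-99a-5p, had 5447 and 2177 counts (-0.27, -0.34 to -0.20). The ratio of miR-99a-5p to miR-100-5p was 1.67 in ob/+ (1.61 to 1.72) and 0.662 in ob/ob (0.619 to 0.708), so their order was exchanged, as it was for miR-10b-5p and miR-10a-5p. miR-99a lies in an intron of Mir99ahg on chromosome 16 together with 1 of the let-7c hairpins, yet let-7c-5p had 42377 and 16276 counts (-0.33, -0.35 to -0.30); a further let-7c hairpin, on chromosome 15, gives the same mature strand. miR-101a-3p had 95 and 12 counts (-1.82, -2.93 to -1.06).

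The miR-322 cluster was the one list whose compared members were all at least 2-fold higher in ob/ob. It lies between Hprt and Plac1 on the X chromosome and is known for roles in cell cycle exit and muscle differentiation. miR-351-5p, its most abundant member, had 441 counts in ob/+ and 723 in ob/ob, although the ob/ob library was the smaller, that is 669 against 2277 CPM (1.76, 1.59 to 1.94). miR-503-3p had 47 and 132 counts (2.47, 2.05 to 3.06), and miR-351-3p had 17 and 63 (2.75, 2.15 to 3.81). miR-322-3p had 196 and 193 counts (1.02, 0.74 to 1.33), and its other arm miR-322-5p 5 and 18 (2.35, 1.42 to 4.69). The scarcer members were higher too: miR-450a-5p had 53 and 68 counts (1.37), miR-542-3p 8 and 24 (2.28), and miR-450b-5p and miR-450b-3p 3 and 7 each (1.57). All 9 ratios lay between 1.02 and 2.75 with a median of 1.76. With mappable reads the median was 0.94 and 4 of the 9 were 2-fold higher. The filter was a mean over the 4 libraries, so scarce members could pass it through the ob/ob libraries. In ob/+ colon miR-322-5p was at 7.59 CPM and the miR-450b arms at 4.55, under the 10 CPM of the filter. Of members that did not pass it, miR-503-5p had 2 and 1 counts (0.02), miR-450a-1-3p 1 and 5 (1.77) and miR-542-5p none. The 12 entries of the list summed to 1178 CPM in ob/+ and 3908 in ob/ob.

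Of the 46 higher entries outside that cluster, 21 were named arms and 25 were entries that do not name an arm. Entries named with a 5p or 3p arm numbered 282 of those compared, of which 30 were 2-fold higher (10.6%) and 56 lower (19.9%), with a median of -0.30. Of the 27 entries with no arm in the name, 14 were higher (51.9%) and 0 lower, with a median of 1.22. Of the 13 entries named after a hairpin, 11 were higher (84.6%) and 0 lower, with a median of 1.84. The 2 classes together made up under 2% of the counts of either library. Hairpin entries took 0.226% of the counts in ob/+ and 0.596% in ob/ob, and entries with no arm 0.360% and 0.798%. These class values depended on the abundance filter: at 100 CPM the class with no arm had 4 of 11 higher and a median of 0.26, and with no filter 29 higher and 5 lower of 104 and a median of 0.47. The hairpin class had 4 of 5 higher at 100 CPM, with a median of 1.92, and 17 of 66 with no filter, with a median of 0.78. Scaled to mappable reads, the class with no arm had 9 higher and 5 lower, and the hairpin class 6 higher and 0 lower.

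miR-3963, with no arm in its name and encoded between Adgrl2 and Adgrl4 on chromosome 3, had the highest ratio of all, with 15 counts in ob/+ and 62 in ob/ob (2.88, 2.27 to 4.02). miR-3470b had 105 and 294 counts (2.51, 2.21 to 2.87), and the entry for its hairpin, mir-3470b, had 20 and 67 (2.63, 2.06 to 3.60), so the mature and the hairpin entry had like ratios. mir-1954 had 40 and 118 counts (2.53, 2.09 to 3.17). The entries of these classes that were 2-fold higher and most abundant in ob/ob were mir-6240, with 311 and 571 counts (1.92, 1.73 to 2.13), and miR-5099, with 436 and 569 (1.43, 1.25 to 1.62). miR-690, in an intron of Fgf12, had 93 and 106 (1.22, 0.83 to 1.66). mir-6236 and let-7j, the most abundant entries of the 2 classes in ob/+ colon, were not among them, with 1056 and 514 counts (0.01, -0.14 to 0.17) and 622 and 320 counts (0.09, -0.10 to 0.29). The RefSeq sequences of the mature strands of the highest of them share no seed with each other.
miR-3963: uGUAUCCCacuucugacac
miR-3470b: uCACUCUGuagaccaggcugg

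The depth of the libraries set what could be seen among scarce entries. In ob/+ colon 616 entries had at least 1 count and in ob/ob 592, of which 442 were shared, 174 were found in ob/+ alone and 150 in ob/ob alone. Thinned in expectation to the total of the ob/ob library, ob/+ would show 481 entries, fewer than the 592 of ob/ob. For arms the expected number was 409 against 465 seen in ob/ob, for entries with no arm 51.3 against 76, and for hairpin entries 20.5 against 51. The excess was thus present in each class, and in proportion widest for hairpin entries. No entry found in ob/ob alone had more than 8 counts, whereas miR-574-5p reached 59 in ob/+ alone. Of the 55 higher entries, 22 were under 10 CPM in ob/+, and of the 56 lower ones 19 were under 10 CPM in ob/ob.

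Outside the miR-322 cluster 21 arms were 2-fold higher. miR-181d-5p, in an intron of Nanos3 on chromosome 8, had 128 counts in ob/+ and 144 in ob/ob (1.20, 0.87 to 1.58). miR-181a-5p shares its seed, ACAUUCA, and had 5158 and 1448 (-0.78, -0.86 to -0.70), so the scarce member was higher and the abundant one lower. miR-7a-5p and miR-7b-5p, known from endocrine and neuronal cells and different by A10U, had 364 and 320 counts (0.86, 0.65 to 1.09; -0.07 with mappable reads) and 300 and 296 (1.03, 0.80 to 1.27; 0.10 with mappable reads). miR-760-5p had 11 and 28 counts (2.14, 1.35 to 3.56). miR-342-5p, encoded in Evl and common in lymphocytes, had 25 and 30 (1.22, 0.50 to 2.14), and miR-342-3p had 376 and 271 (0.58, 0.35 to 0.81; -0.35 with mappable reads). miR-708-5p had 116 and 112 counts (0.98, 0.61 to 1.39), just under 2-fold.

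The smooth muscle miRNAs, which derive from 1 primary transcript with miR-143 and miR-145 side by side, were the largest list of ob/ob colon by summed level and lay within 2-fold. miR-145a-5p had 66218 counts in ob/+ and 42924 in ob/ob (0.43, 0.41 to 0.44; -0.51 with mappable reads), and miR-143-3p had 69170 and 31798 (-0.07, -0.09 to -0.05; 0.30 with library totals). Within a library, miR-145a-5p was 0.957 times miR-143-3p in ob/+ (0.947 to 0.968) and 1.35 times in ob/ob (1.33 to 1.37). The 4 compared arms summed to 213597 CPM in ob/+ and 246396 in ob/ob, with a median of 0.30 that became -0.63 with mappable reads. The striated muscle miRNA miR-133a-3p had 185 and 125 counts (0.48, 0.15 to 0.82), and the 2 arms compared of that list had a median of 0.67, or -0.17 with mappable reads.

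Of the blood and vessel arms compared, 0 were 2-fold lower. The 7 leukocyte arms had 2 higher by 2-fold and 0 lower, with a median of 0.58 (-0.35 with mappable reads) and sums of 735 and 1102 CPM over 9 entries. The 2 higher arms were miR-342-5p, with 25 and 30 counts, and miR-223-3p, with 2 and 4. With a prior count of 5 only 1 arm of the list was 2-fold higher. miR-142-5p, made in all blood cells, had 17 counts in each library, and miR-142-3p had 2 and 0. The erythroid entries rested on miR-486-5p, also a muscle miRNA, with 925 and 556 counts (0.32, 0.16 to 0.47), and on its other arm. miR-451a, the defining miRNA of red cells, and miR-144-5p, encoded beside it, had 6 and 0 counts each and were under the abundance filter. The median of the 2 compared arms was 0.18 (-0.61 with mappable reads), and with no filter that of 4 entries was -0.80. The endothelial miR-126a-3p, encoded in Egfl7, had 243 and 133 counts (0.18, -0.13 to 0.49), and the pair of arms had a median of 0.12 (-0.79 with mappable reads).

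Neuronal and glial miRNAs had no common direction. miR-129-1-3p had 14 counts in ob/+ and 24 in ob/ob (1.64) and miR-129-2-3p 124 and 104 (0.79, 0.41 to 1.19). On the lower side, miR-9-3p had 16 and 2 (-1.43, -5.11 to 0.14) and miR-138-5p 8 and 1 (-1.14). miR-9-5p, the main strand of miR-9, had 72 and 59 (0.74, 0.24 to 1.28), so its 2 arms pointed apart at low counts. Of 10 compared, 2 were higher and 2 lower by 2-fold, beside 17.1% and 17.4% of all entries and 10.6% and 19.9% of all arms. The median was 0.33 (-0.57 with mappable reads). Over 21 entries the sum was 812 CPM in ob/+ and 1112 in ob/ob, with 5 and 7 at 0. The 3 endocrine arms, miR-7a-5p, miR-7b-5p and miR-375-3p, had a median of 0.86 (-0.07 with mappable reads, -0.09 with no filter).

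The large families of housekeeping miRNAs mostly stayed within 2-fold. Of 15 let-7 entries 0 passed 2-fold, with a median of 0.09 (-0.84 with mappable reads) and a sum over the 21 entries of 183334 CPM in ob/+ and 197116 in ob/ob. Within the family the members spread: let-7e-5p had a ratio of 0.83 and let-7g-5p of 0.63, while let-7c-5p and let-7b-5p had -0.33 and -0.31. Of 10 miR-30 arms 0 passed, with a median of 0.18 (-0.73 with mappable reads), and miR-30e-5p was the highest 5p arm with 1222 and 1086 counts (0.88, 0.76 to 1.0). The miR-26 arms had a median of -0.67, and miR-26a-5p, which gave most of that family, had 41930 and 12700 counts (-0.67, -0.70 to -0.64). Among the arms of miR-99, miR-100 and the miR-125 family, 1 of 8 was lower, miR-99a-5p, with a median of -0.61, and the miR-23, miR-27 and miR-24 list also 1 of 8, miR-23a-3p, with a median of -0.48.

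In smaller families a few arms passed 2-fold. They are to be read beside the 17.1% higher and 17.4% lower of all entries, and the 10.6% and 19.9% of all arms. The miR-29 list had 2 of 5 higher, miR-29b-2-5p with 3 and 10 counts and miR-29c-3p with 20 and 21. Its median was 0.49 (-0.31 with mappable reads, -0.95 at 100 CPM). Its abundant member miR-29a-3p, which represses collagens, had 1273 and 317 counts (-0.95, -1.13 to -0.77). The miR-17-92 list and its paralogs had 3 of 9 higher, all with 15 counts or fewer in each library and 0 of them past 2-fold with a prior count of 5, and a median of 0.04 (-0.69 with mappable reads, -0.28 at 100 CPM). The miR-15/16 list had 2 of 6 higher, both arms of miR-322, and 1 lower, miR-195a-5p, with a median of -0.09 (0.27 with library totals). The miR-181 list had 1 of 6 higher and a median of 0.17 (-0.69 with mappable reads, -0.14 at 100 CPM). The Sfmbt2 list had 1 of 4 higher, miR-466i-5p with 2 and 5 counts (1.44, -0.24 to 5.77), and a median of 0.43 (-0.41 with mappable reads). For the miR-34 and miR-449 list, the list of miR-148 and miR-152 and the list of insulin and lipid metabolism, 0 arms passed, and the medians were -0.74, -0.37 and -0.31 (the first 0.02 with no filter, the last 0.04 with library totals). Inflammation and stress miRNAs also had 0 of 4 past 2-fold and a median of -0.59: miR-21a-5p had 679 and 220 counts (-0.57, -0.80 to -0.35), and miR-146a-5p, a brake on NF-kappaB signalling, 702 and 522 (0.62, 0.46 to 0.79; -0.31 with mappable reads).

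**Figure D4:**
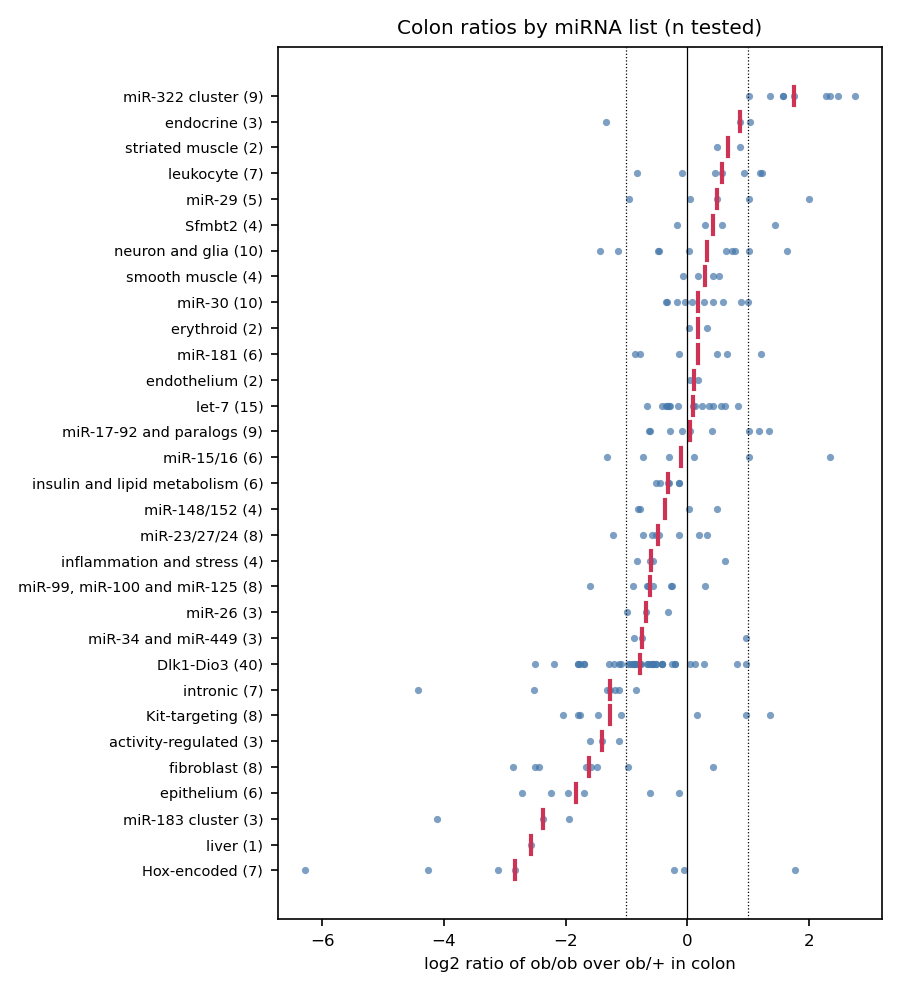
Log2 ratio of ob/ob over ob/+ in colon (x axis) for each compared member (blue points) of the 31 miRNA lists, with the number compared in brackets, the list median as a red bar and dotted lines at 2-fold. The Hox-encoded list has the lowest median (-2.83) and the miR-322 cluster the highest (1.76).

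Seeds gave another reading of the same ratios. A RefSeq mature sequence was found for 263 of the 322 entries, and 27 seeds were shared by at least 2 of them. The seed AGCAGCA was the only one with a member 2-fold higher and another 2-fold lower: miR-322-5p at 2.35 and miR-195a-5p (226 and 43 counts) at -1.31. Its bulk came from miR-16-5p, with 1006 and 394 counts (-0.30, -0.47 to -0.13), so the summed level with this seed was 2099 CPM in ob/+ and 1672 in ob/ob. The seed CCCUGAG joins miR-351-5p (1.76) with miR-125b-5p (-0.66) and miR-125a-5p (-0.25), which were far more abundant, and its sum was 153972 and 109374 CPM. For both seeds the summed level thus followed the abundant members and not the X-linked one. The seed of miR-10a and miR-10b, ACCCUGU, had 272637 CPM in ob/+ and 95034 in ob/ob (-1.52), a smaller difference than that of miR-10b-5p since its other member, miR-10a-5p, had a ratio of -0.22. The miR-196 seed, AGGUAGU, had 3404 and 117 CPM (-4.87) and the miR-200b and miR-200c seed, AAUACUG, 364 and 63.0 CPM (-2.53). The let-7 seed, GAGGUAG, had 180915 and 195047 CPM, and the miR-30 seed, GUAAACA, 17231 and 22231 over the 4 entries matched to a sequence. The compared arms miR-30d-5p (-0.34) and miR-30b-5p (-0.33) had no matched sequence, so the miR-30 sum leaves out these 2 lower members.

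The arms of a hairpin gave a further comparison, although some strands come from more than 1 gene, such as those of miR-9. For 57 hairpins both arms were compared, and the 2 ratios had the same sign for 45. Both arms were 2-fold lower for 7 hairpins and 2-fold higher for 4, and for 0 was 1 arm higher and the other lower by 2-fold. For 8 hairpins the counting intervals of the arms did not overlap, as for let-7d-5p (0.24) and let-7d-3p (-0.67). The median difference between arms was 0.48 in size, and the ratios correlated across hairpins (Pearson r = 0.73, a description over 57 hairpins of 1 pair of libraries). Base composition was close on both sides: the median GC content was 45.5% for the higher, 45.5% for the lower and 47.9% for the other entries with a sequence. A U at the first base was found in 19 of 38 higher, 27 of 51 lower and 74 of 174 other sequences.

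Beside colon, the same genotypes were compared in jejunum, where 47 of the 322 entries were 2-fold higher (14.6%) and 58 lower (18.0%). The ratios of the tissues correlated across entries (Pearson r = 0.80, Spearman rho = 0.76, over 322 entries of 4 libraries, which share their scaling). Of the entries 2-fold lower in colon, 35 were also lower in jejunum, which is 62.5% of the colonic and 60.3% of the jejunal ones. Of those higher in colon, 32 were also higher in jejunum, 58.2% of the colonic and 68.1% of the jejunal ones, and 0 entries passed 2-fold in opposite directions. The counting intervals of the tissues did not overlap for 54 entries, with the colonic ratio above for 13 and below for 41. These numbers depend on the scale, on which the median of all ratios was -0.21 in colon and 0.02 in jejunum. Library totals shift the tissues unequally: miR-125a-5p went from -0.25 to 0.12 in colon and from 0.08 to 0.13 in jejunum. No replicate exists to test these differences between tissues.

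Some colonic differences were little seen in jejunum. miR-335-5p had a ratio of -1.19 (-1.39 to -1.0) in colon and 0.03 (-0.17 to 0.23) in jejunum. miR-221-5p had -1.79 (-2.48 to -1.26) and -0.34 (-0.82 to 0.12), and miR-140-3p -1.48 (-1.97 to -1.07) and -0.25 (-0.63 to 0.12). In these 3 miRNAs the jejunal interval included 0 and did not reach the colonic one. This held for the named arms only, since the other arms of miR-335 and miR-221 were lower in both tissues. miR-335-3p had -1.26 in colon and -1.49 in jejunum, and miR-221-3p -1.47 and -1.66. The scarce miR-140-5p had 0.42 and 0.53. miR-455-3p had -1.57 in colon and -0.62 (-0.76 to -0.47) in jejunum, and miR-212-5p -1.60 and -0.57 (-1.33 to 0.12). On the higher side, miR-3963 had 2.88 and 0.98 (0.44 to 1.62), miR-5099 1.43 and 0.41 (0.24 to 0.58), and mir-3535 1.39 (1.06 to 1.77) and 0.07 (-0.27 to 0.42). The class of entries with no arm had medians of 1.22 in colon and 0.67 in jejunum, and the hairpin class 1.84 and 1.20.

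Other differences were wider in jejunum. miR-200b-3p had -2.72 (-3.83 to -2.01) in colon and -4.75 (-6.16 to -4.07) in jejunum, and the epithelial list had medians of -1.82 and -3.01. miR-196a-5p had -2.83 (-3.51 to -2.33) and -4.48 (-5.53 to -3.88). miR-708-5p had 0.98 (0.61 to 1.39) and 2.15 (1.69 to 2.75), and the miR-322 cluster medians of 1.76 and 2.48. The relation between the miR-10 partners was close in both tissues: in jejunum miR-10b-5p was 1.70 times miR-10a-5p in ob/+ (1.68 to 1.72) and 0.104 times in ob/ob (0.101 to 0.107), beside the colonic 1.71 and 0.104.

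**Figure D5:**
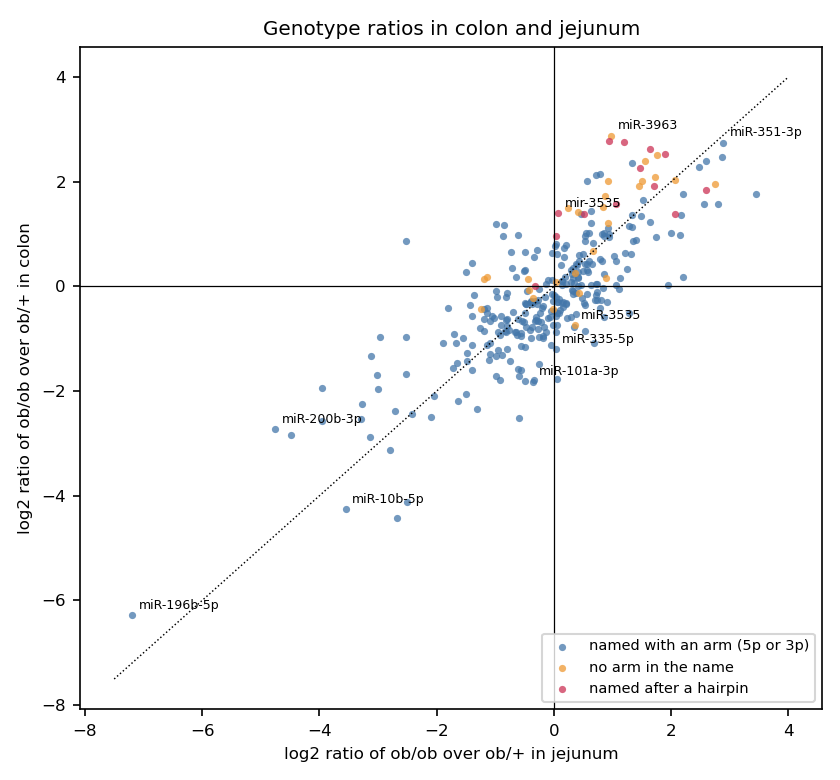
Log2 ratio of ob/ob over ob/+ in jejunum (x axis) and colon (y axis) for the 322 compared entries, coloured by how the entry is named, with a dotted line of equality. Most points follow the line (Pearson r = 0.80); miR-335-5p and miR-101a-3p lie below it, and miR-3963 and mir-3535 above.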

How the data were processed

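The study sequenced small RNA from 4 pools of Kit-sorted cells, and the 2 colon pools are the subject here. Per the file headers, the authors trimmed the 3′ adapter, dropped reads shorter than 15 nt, and counted the mappable rest against miRBase 20 and the mm9 mouse genome. The sources used here name neither the aligner nor the counting program. The deposited values are estimated counts, of which 89.8% (ob/+) and 89.7% (ob/ob) of those above 0 are whole within 1e-06. The authors' normalized signal equals these counts times 1 factor per library (0.661 and 1.45 in colon). For 235 miRNAs the authors' deposited table adds a genotype ratio in each tissue, and a statistics sheet holds read numbers as other values.

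Estimated counts were rounded. Scaling used the trimmed mean of M-values (TMM) from edgeR 4.0.16 over the 4 libraries (0.920 for ob/+ and 1.19 for ob/ob colon). Log2 ratios used a prior count of 2, and their 95% intervals are exact conditional binomial (Clopper-Pearson) intervals that cover counting error only. With 1 pooled library a side no test was made. The script was tested on simulated counts. Entries were named by rule: the 10 most abundant, the 15 most extreme in each direction at 100 CPM or more, the 10 largest CPM differences in each direction, up to 4 per list, the 10 in each direction whose tissues differed most, up to 6 hairpins whose arms differed most, and seed groups of at least 3; others named in the text were chosen after their values were seen. The miRNAs and the 31 lists were chosen with earlier results of these data known. Alternatives were library totals, median-of-ratios and the authors' factors, TMM of the colon libraries, mappable reads, other prior counts, filters and thresholds, and leaving out hairpin entries; leaving miR-10b-5p out of the totals was added after the data were seen. Sequences and chromosomes came from RefSeq (GRCm38.p6) and host genes from GENCODE on GRCm38. No coordinates are given, because the files use mm9.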

Additional observations from a re-analysis of the deposited data

Results flagged for a closer look

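In 4 miRNAs the ratio of ob/ob over ob/+ had opposite signs in the tissues, with both counting intervals clear of 0 and on opposite sides of the median of all entries as well. miR-125a-5p had -0.25 in colon and 0.080 in jejunum, and miR-24-3p had -0.46 and 0.11. miR-3535 had -0.73 and 0.36, and let-7i-5p had 0.12 in colon and -0.11 in jejunum. None of them reached 2-fold in either tissue. These signs depend on the scale: with library totals miR-125a-5p had 0.12 in colon and 0.13 in jejunum, and with mappable reads all 4 miRNAs had negative ratios in both tissues. The difference between tissues was not tested, since each group has 1 library.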

How the results depend on the processing

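No paired analysis was possible because each group has 1 pooled library and no replicate number. The 2-fold counts of 55 higher and 56 lower became 23 and 167 with mappable reads, 106 and 92 with no abundance filter, 15 and 27 with a 100 CPM filter, 83 and 106 at a 1.5-fold threshold, and 20 and 19 at a 4-fold threshold. Under the other scalings, prior counts and filters the counts lay within 1.5 times of 55 and 56, between 44 and 75 higher and between 40 and 66 lower. Of the 64 named entries past 2-fold, 18 were under it with mappable reads, 7 with library totals, 6 with a prior count of 5, 2 with TMM of the colon libraries and 2 without miR-10b-5p in the totals, and of the 59 left without hairpin entries 2 were. None changed sign under any scaling or prior count tried, but this outcome was fixed in advance and shows nothing further. The entries were chosen past 2-fold, and each scaling shifted the ratios by less than that. The largest shift was with mappable reads, where miR-125a-5p in colon went from -0.25 to -1.18. A prior count only sets how far ratios are pulled towards 0. List medians whose sign depends on the scale or the abundance filter are given with the other value in the text; that of the miR-15/16 list, -0.09, was also 0.05 with TMM of the colon libraries, 0.04 without miR-10b-5p in the totals, 0.11 with the filter over the colon libraries and 0.06 without hairpin entries. The cause of the lower miRNA share of the ob/ob reads was not tested. Depth limits the scarce entries most: 115 of the 322 had fewer than 10 counts in at least 1 colon library.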

Other observations

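For some miRNAs the table holds both a mature and a hairpin entry. miR-3535 had 312 counts in ob/+ colon and 90 in ob/ob (-0.73, -1.10 to -0.40), while mir-3535 had 119 and 153 (1.39, 1.06 to 1.77). miR-6240 had 109 and 85 counts (0.68, 0.27 to 1.12), and mir-6240 had a ratio of 1.92 (1.73 to 2.13). In both pairs the hairpin entry lay above the mature entry with intervals that did not overlap, whereas miR-3470a (2.40) and mir-3470a (2.78) did not differ beyond theirs. Which reads the authors' counting put into which entry was not tested.

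The authors' deposited table gives a colonic ratio of at least 2 for 48 of its 235 miRNAs and of at most 0.5 for 34. The median log2 difference between its ratios and those computed here was 0.08.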
